A study of Rattus norvegicus with 6 samples.

Results

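The potassium channel genes of the rat, all genes whose symbol starts with Kcn, were compared between islets of 12-month-old and 3-month-old animals, leaving out Kcnj8 and Kcnj11, which encode the pores of the ATP-sensitive (KATP) channel. Members were found through the mRNA accession that each array probe carries, and 81 of the 13888 genes matched to a probe on the array belonged to the family. The RefSeq table held 93 protein-coding genes of this name, so 12 had no matched probe here, among them Kcna10, Kcnc4, Kcnd2l1, Kcnf1, Kcnip1, Kcnk7, Kcnk9, Kcnq5, Kcnrg and Kcnu1. Each gene was read from 1 probe, the brightest of its probes on average, and the 58 members that the scanner software flagged as well above background on 3 or more arrays entered the test.

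The islets came from male Wistar rats, a common outbred laboratory strain, of 2 ages: 3 months, called young here, and 12 months, called old. Islets were freed from the pancreas by collagenase digestion, total RNA was extracted and labelled with Cy3, and each sample was hybridised to its own 1-colour array, with 3 arrays of each age. The labels name no transgene and no treatment. By the study's account the RNA came from the islets of 3 rats of each age, which with 3 arrays an age would be 1 rat an array, although the labels do not tie an array to an animal.

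Potassium channels let potassium ions leave the cell and so pull the membrane potential back towards rest. In beta cells the KATP channel closes when glucose is metabolised, the membrane depolarises and calcium enters through voltage-gated calcium channels, and insulin granules fuse. Voltage-gated channels then end each action potential, calcium-activated channels help to end each burst, 2-pore-domain channels carry the background leak, and G protein-gated inward rectifiers open when adrenaline or somatostatin brakes secretion. A further set of genes encodes subunits that form no channel alone: electrically silent pore subunits that join delayed rectifier channels, and accessory subunits that change gating or traffic.

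The preparation carried the markers of islets. Ins1, Ins2, Gcg, Sst and Ppy, which encode the hormones of the beta, alpha, delta and PP cells, were well above background on all 6 arrays. So were all 8 genes of pancreatic acinar enzymes examined, with a median difference between the ages of 0.12 log2 units, so exocrine RNA was present at both ages. Some of these genes varied between arrays of an age. Ctrb1 read 16.61, 17.07 and 14.02 in young and 17.64, 14.39 and 17.91 in old islets, while Pnlip stayed at 18.31 to 18.52. Pnlip lay near the top of the normalised range, where quantile normalisation sets values by rank, so a change of it could be hidden. The arrays measured whole islets, in which fewer cells of a type and less RNA per cell cannot be told apart.

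The 2 ages differed in how many members could be seen. On the young arrays 60, 63 and 59 of the 81 members were well above background, and on the old arrays 50, 50 and 46 were. The old arrays were also the brighter ones in their negative controls, with medians of 89.5 to 91 intensity units against 29.5 to 31, and the share of all probes well above background was 61.2% on average against 75.7%. The ages were scanned in 2 separate scans and neither held both ages, which means that an effect of the scan cannot be told apart from one of age. Of the 23 members that were not tested, 15 were well above background on no array, among them Kcnd1, Kcnv1, Kcnn1, Kcnj10 and Kcnj15 of the channels ascribed to islet cells. Another 5 members were tested but well above background on no old array, namely Kcng3, Kcnt1, Kcnj1, Kcnk18 and Kcna2, and for these the old level is only a bound. No tested member was in the opposite position.

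**Figure D1:**
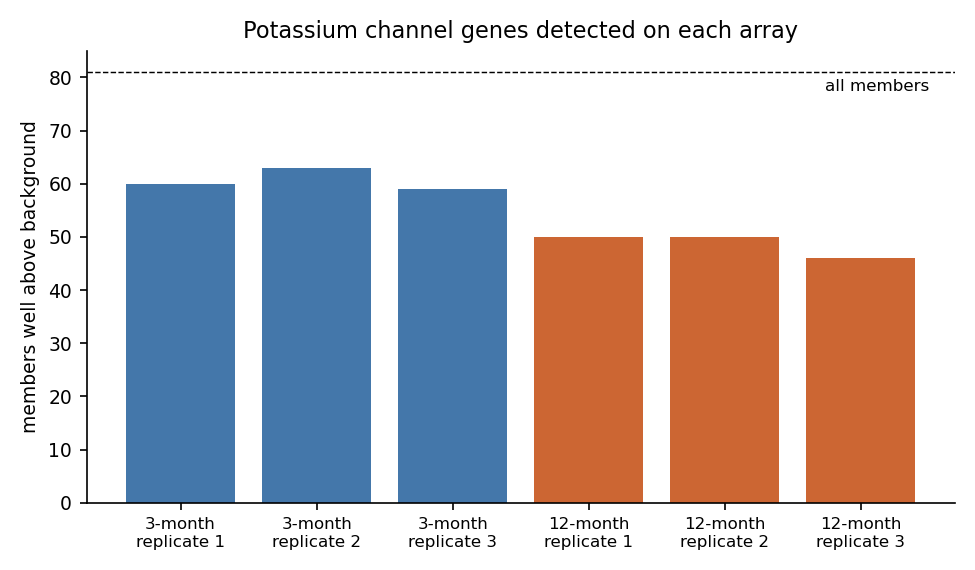
Number of potassium channel genes well above background on each array, by age and replicate (blue, 3 months; orange, 12 months; dashed line, all 81 members). The young arrays detected 59 to 63 members and the old arrays 46 to 50.

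Taking all 17941 tested probes for the Benjamini-Hochberg adjustment, limma called 7 of the 58 tested members (adjusted p under 0.05). Kcnn2 was the member that rose, and Kcng3, Kcns1, Kcnj4, Kcnk1, Kcnk2 and Kcnk6 fell. Kcng3 entered the test through its young arrays alone. That is 1.72% of the tested members higher and 10.3% lower, where 5.32% of all tested probes were called higher and 3.05% lower. The study's gene lists used a change of more than 2-fold and a nominal p under 0.05. With the p of limma at this threshold, 1 member was higher and 13 were lower (1.72% and 22.4%, against 10.1% and 11.9% of all probes). Of the 13, Kcnt1 and Kcnj1 were well above background on no old array and had bounds under 2-fold. With the paired t-test that the study's supplement names, 7 members were past the threshold in place of 14, 1 higher and 6 lower. The 3 old arrays lay wholly above the 3 young ones for 3 members and wholly below them for 17 (5.17% and 29.3%, against 16.5% and 22.6% of all probes). By both thresholds of limma and by non-overlap, the share of members in the lower direction was thus above that of all probes. The share in the higher direction was below it, as a description with no test. The lower counts include Kcng3, and those by the study's threshold and by non-overlap also include Kcnt1 and Kcnj1. These genes entered the test through their young arrays alone, and non-overlap was not counted without them. For the paired t-test the share of all probes was not counted.

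Since the background differed between the ages, the members well above background on all 6 arrays were counted again. Of these 43 members, 1 was higher and 9 were lower by the study's threshold (2.33% and 20.9%). Of all probes of that kind, 11.1% were higher and 8.69% lower. At the adjusted threshold of limma 1 of the 43 members was higher and 4 were lower, beside 468 and 228 of 9129 matched genes. The median difference between old and young was -0.51 log2 units over the 58 tested members and -0.17 over all tested probes, and it was -0.49 and -0.08 in those well above background throughout. In sign, 63.8% of the tested members (37) were lower in old islets and 21 were higher, beside 56.5% lower among all tested genes. The 37 include the 5 members well above background on no old array. The gap between the median of the members and that of all probes depended on the treatment of dim signals: the medians were -0.16 and -0.10 with normexp background correction, and -0.12 and -0.06 with no probe left out as dim.

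**Figure D2:**
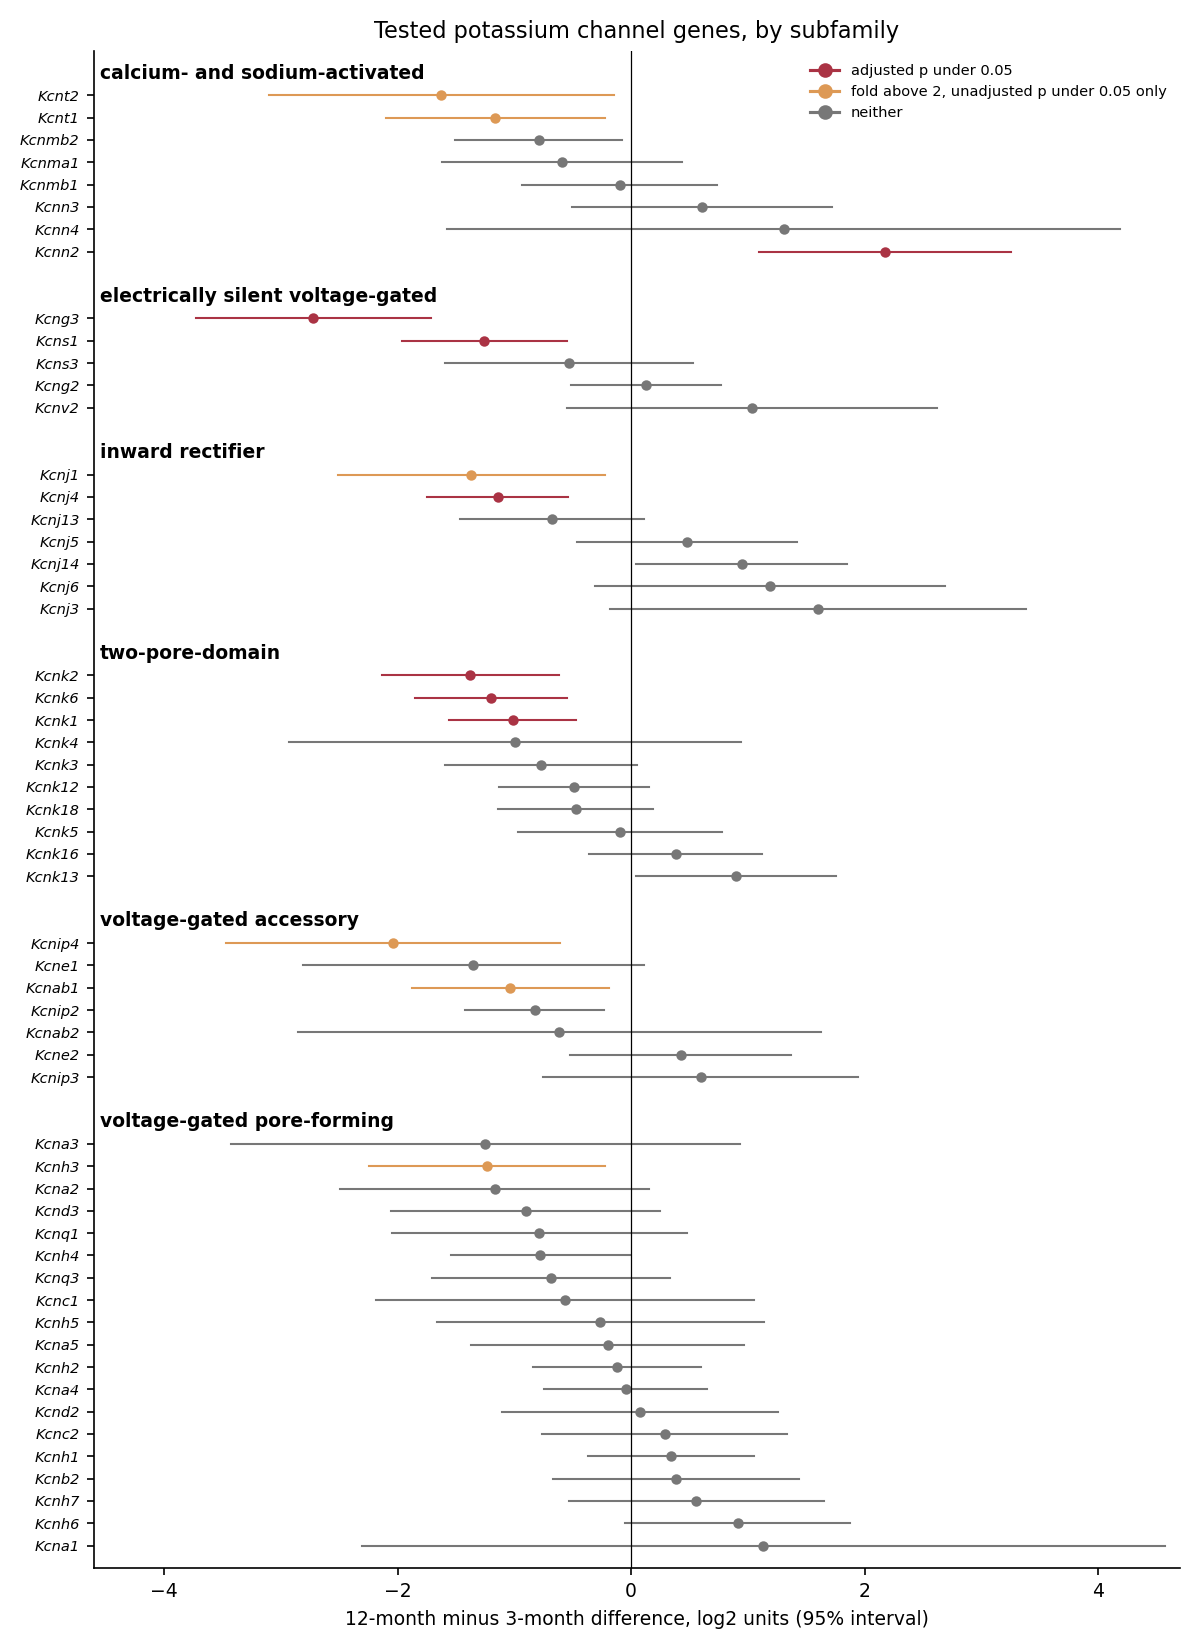
Difference between old and young islets (12 minus 3 months, log2 units, horizontal axis) for 56 of the 58 tested members, grouped by subfamily, with 95% intervals from limma. Red marks an adjusted p under 0.05, orange the study's threshold alone, and grey neither. The red interval to the right of 0 is that of Kcnn2, and the 6 others lie to its left. For Kcng3, Kcnt1, Kcnj1, Kcnk18 and Kcna2 no old array was well above background.

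Among the calcium- and sodium-activated channels, 8 of 11 members were tested, 1 rose and none fell at the adjusted threshold of limma, with 3 lower at an unadjusted p under 0.05. At the adjusted threshold 12.5% were thus higher and 0% lower, beside 5.32% and 3.05% of all tested probes. Kcnn2 (NCBI gene 54262) encodes SK2, a small-conductance channel that opens when calcium binds the calmodulin fixed to it. Its normalised log2 signal was 6.87, 8.47 and 8.04 on the young arrays and 9.69, 10.41 and 9.81 on the old ones. All old values lay above all young ones, and young replicate 1 was the lowest array. The difference was 2.17 (SE 0.45, 95% interval 1.09 to 3.26, adjusted p = 0.0371 by limma), a 4.51-fold higher signal. It kept its sign under all 18 alternatives tried, between 1.71 and 2.51, but passed the adjusted threshold under 9 of them.

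The other SK and IK genes gave wider intervals. Kcnn3, which encodes SK3, read 5.89, 7.53 and 6.34 in young and 7.55, 7.33 and 6.71 in old islets, a difference of 0.60 (95% interval -0.51 to 1.72) with overlapping ages. Kcnn4, which encodes the intermediate-conductance channel, read 4.54, 3.83 and 2.91 against 6.34, 2.10 and 6.75, and the old arrays spanned both ends of the range (difference 1.31, 95% interval -1.58 to 4.19). Kcnn1, for SK1, was well above background on no array.

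The BK channel combines the pore Kcnma1 with a beta subunit that sets its calcium sensitivity. Kcnma1 read 6.27, 7.29 and 7.23 in young and 5.77, 7.02 and 6.22 in old islets, and the ages overlapped (difference -0.59, 95% interval -1.62 to 0.44). Kcnmb2, a beta subunit that inactivates the channel, read 9.46, 9.05 and 9.58 against 8.18, 9.0 and 8.52, with all old values below all young ones (difference -0.79, adjusted p = 0.129). Kcnmb1 differed by -0.10 (95% interval -0.93 to 0.73), and Kcnmb4 was well above background on 2 young arrays and on no old array, which was too few for the test.

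The sodium-activated channels Kcnt1 and Kcnt2, also known as Slack and Slick, did not pass the adjusted threshold. Kcnt2 read 7.25, 8.02 and 9.72 in young and 6.23, 6.95 and 6.92 in old islets. No values overlapped, and the high value of young replicate 3 widened the interval (difference -1.63, 95% interval -3.11 to -0.15, adjusted p = 0.130). Kcnt1 read 5.70, 5.27 and 5.78 in young islets and was not well above background on any old array. Its approximate bound was a signal at least 1.72-fold lower in old islets (adjusted p = 0.101).

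The electrically silent subunits modify the delayed rectifier, the main voltage-gated potassium current of rat beta cells. They were tested for 5 of 9 members, and 2 of these fell at the adjusted threshold of limma (40%, beside 3.05% of all tested probes). Of these 2, Kcng3 was well above background on no old array. Among the 3 silent subunits well above background on all 6 arrays, 1 fell. Kcng3 (NCBI gene 171011) encodes Kv6.3 and Kcns1 (NCBI gene 117023) encodes Kv9.1. Their promoters are shown since both genes carry copies of the GC box GGGCGG, the site of Sp-family factors, in the 250 bases before the RefSeq start. Build GRCr8 is used, each strand is read 5′ to 3′ in the gene's direction, and capitals mark GGGCGG or its reverse complement. The first lies at chr6:16803592-16803841 on the plus strand and the second at chr3:173262347-173262596 on the minus strand.
Kcng3 promoter: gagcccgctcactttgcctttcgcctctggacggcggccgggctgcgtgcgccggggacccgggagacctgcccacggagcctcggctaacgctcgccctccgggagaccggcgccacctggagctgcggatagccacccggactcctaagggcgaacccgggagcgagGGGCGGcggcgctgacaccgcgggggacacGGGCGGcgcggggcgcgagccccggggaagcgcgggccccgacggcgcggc
Kcns1 promoter: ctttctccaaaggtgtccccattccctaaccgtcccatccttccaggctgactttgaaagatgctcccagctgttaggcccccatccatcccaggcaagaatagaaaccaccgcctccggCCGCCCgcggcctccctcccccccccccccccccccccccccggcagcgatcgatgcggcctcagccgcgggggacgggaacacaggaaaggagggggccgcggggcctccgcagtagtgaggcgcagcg

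Kcng3 read 6.86, 5.73 and 5.31 on the young arrays and 3.26, 3.47 and 3.00 on the old ones. The ages did not overlap. None of the old values was well above background, so only an approximate bound can be given for the fold of Kcng3. With the lowest signal well above background on each old array as the floor, the signal was at least 2.24-fold lower in old islets. The adjusted p of 0.0180 by limma compares young signal with old values that were not well above background. A second probe of Kcng3, on another transcript record, was well above background on 3 young arrays and no old array. By the same floor it was at least 2.13-fold lower (adjusted p = 0.0219 by limma). With normexp background correction Kcng3 missed the threshold (adjusted p = 0.0685).

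Kcns1 read 7.79, 8.0 and 7.63 in young and 6.08, 6.97 and 6.59 in old islets. All 6 values were well above background and the ages did not overlap. The difference was -1.26 (SE 0.30, 95% interval -1.97 to -0.55), with an adjusted p of 0.0497 by limma, just inside the threshold.

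The other silent subunits did not pass. Kcns3, Kv9.3, read 9.43, 9.11 and 8.98 against 9.64, 8.20 and 8.09, with old replicate 1 above all young arrays (difference -0.53, 95% interval -1.59 to 0.53). Kcng2, Kv6.2, read 7.78, 7.80 and 7.37 against 7.43, 7.85 and 8.05, a difference of 0.13 (95% interval -0.52 to 0.77).

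Kcnb2, which encodes a delayed rectifier pore that such subunits can join, was on the other side of 0. It read 6.42, 7.56 and 7.80 in young and 7.45, 8.19 and 7.26 in old islets, and young replicate 1 was its lowest array (difference 0.38, 95% interval -0.67 to 1.43). The ages overlapped, and the interval does not leave out a doubling.

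Of the 25 voltage-gated pore-forming members, 21 were tested and none passed the adjusted threshold in limma (3 had an unadjusted p under 0.05), while 2 passed the study's threshold, Kcnh3 among them. Kcnh3, of the ether-à-go-go-like channels, read 11.77, 11.36 and 12.78 against 10.27, 11.03 and 10.90, with no overlap (difference -1.24, 95% interval -2.25 to -0.23, adjusted p = 0.104).

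The pores that are ascribed to beta cell repolarisation differed in sign from gene to gene, and each of their intervals held 0. Kcnh6, of the ERG channels, read 10.93, 11.21 and 10.96 in young and 12.29, 11.06 and 12.49 in old islets, with old replicate 2 among the young values (difference 0.91, 95% interval -0.06 to 1.88). Kcnq1, the pore of the slow delayed rectifier and a type 2 diabetes susceptibility gene in people, read 10.51, 11.08 and 9.50 against 10.10, 8.69 and 9.94 (difference -0.79, 95% interval -2.05 to 0.48). Kcnh2, which encodes the ERG channel, read 12.38, 12.72 and 12.91 against 12.10, 12.61 and 12.94, a difference of -0.12 (95% interval -0.84 to 0.60).

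For Kcnh2 the interval leaves out a doubling or a halving, whereas for Kcnc1, Kv3.1, it ran from -2.18 to 1.06 around a difference of -0.56. Kcnc1 varied more within an age than between ages, at 10.58, 9.98 and 11.07 in young and 9.67, 11.47 and 8.80 in old islets. Kcna5, Kv1.5, differed by -0.20 (95% interval -1.37 to 0.97) and Kcnh1 by 0.34 (95% interval -0.37 to 1.05).

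**Figure D3:**
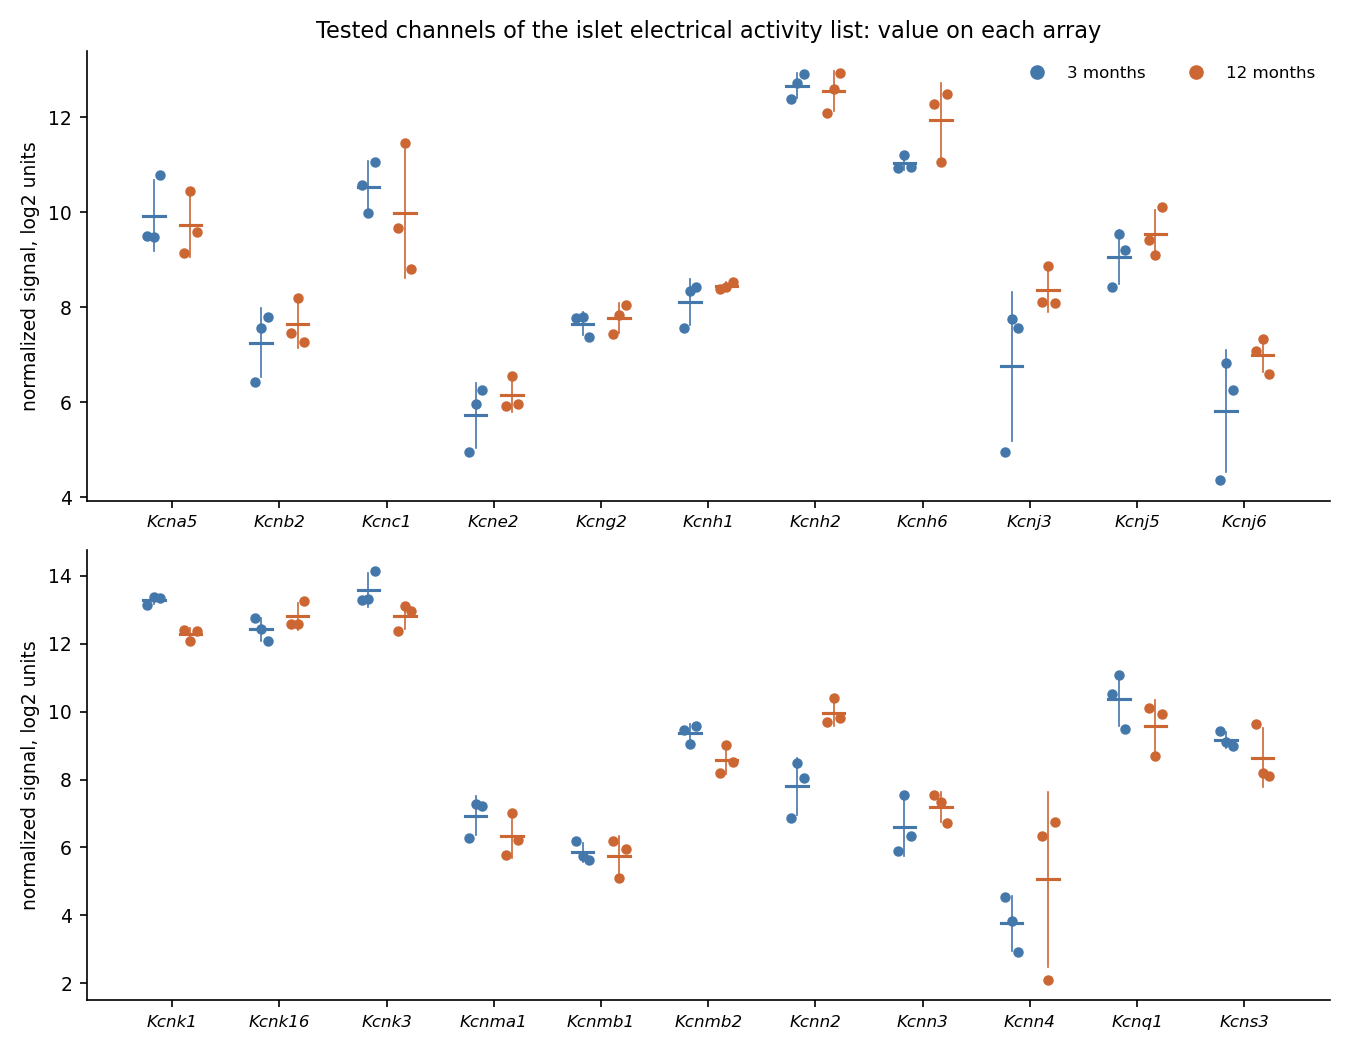
Normalised log2 signal on each array (points) of 22 of the 23 tested channels ascribed to islet electrical activity, with the mean (horizontal bar) and SD (vertical line) of the 3 young (blue) and 3 old (orange) arrays. Kcnn2 lies higher and Kcnk1 lower in old islets, and young replicate 1 is the lowest array of Kcnj3 and Kcnj6.

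The accessory subunits had the lowest median of the subfamilies, -0.82 over 7 tested members of 11, yet none passed the adjusted threshold in limma (3 had an unadjusted p under 0.05) and 2 passed the study's. Kcnip4, a calcium-binding subunit of the A-type Kcnd channels, read 9.83, 9.86 and 11.55 in young and 7.72, 9.28 and 8.12 in old islets. The ages did not overlap, and the spread within each was wide (difference -2.04, 95% interval -3.47 to -0.61, adjusted p = 0.0775). Kcnip2, of the same kind, read 9.24, 9.27 and 9.51 against 8.19, 8.66 and 8.70, again without overlap, and its 3 probes gave differences of -0.82, -0.72 and -0.73 (adjusted p of 0.0822 to 0.129). Kcnd3, the A-type pore that both can join, read 12.72, 12.71 and 14.20 against 11.84, 12.84 and 12.23, and its ages overlapped (difference -0.91, adjusted p = 0.235).

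The beta subunits of the Kcna channels and the small Kcne subunits complete the group. Kcnab1, which speeds inactivation of Kcna channels, read 9.17, 9.62 and 9.42 in young and 8.77, 8.67 and 7.66 in old islets, all lower (difference -1.03, 95% interval -1.88 to -0.19, adjusted p = 0.105). Kcne1, which joins Kcnq1 in the slow delayed rectifier, read 13.06, 14.01 and 12.30 against 12.06, 10.67 and 12.58, where old replicate 3 lay within the young range (difference -1.35, 95% interval -2.81 to 0.11). Kcne2 differed by 0.42 (95% interval -0.52 to 1.37).

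Of 13 inward rectifier members 7 were tested, and the median difference was 0.48. At the adjusted threshold of limma 0% were higher and 14.3% lower, beside 5.32% and 3.05% of all tested probes. Kcnj4 (NCBI gene 116649), which encodes the strong rectifier Kir2.3 that holds the resting potential of excitable cells, was the member that fell. Its RefSeq promoter is shown for the TGACG core of the cAMP response element, in capitals. It lies at chr7:112954548-112954797 in GRCr8, on the minus strand, and is read 5′ to 3′ in the direction of the gene.
Kcnj4 promoter: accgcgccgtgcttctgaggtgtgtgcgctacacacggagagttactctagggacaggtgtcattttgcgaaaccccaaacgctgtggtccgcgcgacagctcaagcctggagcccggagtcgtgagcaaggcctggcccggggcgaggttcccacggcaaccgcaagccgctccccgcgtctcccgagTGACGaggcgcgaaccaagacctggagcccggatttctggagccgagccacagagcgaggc

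Kcnj4 read 6.23, 6.47 and 5.90 on the young arrays and 5.15, 5.16 and 4.86 on the old ones. The ages did not overlap, and 1 old array was well above background. The difference was -1.14 (SE 0.25, 95% interval -1.75 to -0.54, adjusted p = 0.0434 by limma), and with normexp it was -0.46 and missed the threshold (adjusted p = 0.0956). Kcnj1, the ROMK channel best known from the kidney, read 5.27, 4.80 and 6.44 in young islets and was well above background on no old array. Its approximate bound was a signal at least 1.58-fold lower (adjusted p = 0.110).

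The tested G protein-gated channels, through which adrenaline and somatostatin hyperpolarise islet cells, were all higher in sign. Kcnj9, GIRK3, was well above background on no array and was not tested. Kcnj3, GIRK1, read 4.95, 7.76 and 7.55 in young and 8.11, 8.87 and 8.08 in old islets. The ages did not overlap, but young replicate 1 stood far below the rest (difference 1.60, 95% interval -0.18 to 3.38, adjusted p = 0.188). Kcnj6, GIRK2, shared that low array, at 4.36, 6.82 and 6.25 against 7.07, 7.33 and 6.60 (difference 1.19, 95% interval -0.31 to 2.69). Without young replicate 1 the differences of Kcnj3 and Kcnj6 were 0.70 and 0.46. Kcnj5, GIRK4, differed by 0.48 (95% interval -0.46 to 1.42). None of the 3 passed in limma, even at an unadjusted p under 0.05. Of the other inward rectifiers, Kcnj14, a strong rectifier like Kcnj4, differed by 0.95 (95% interval 0.04 to 1.85, adjusted p = 0.142) and Kcnj13 by -0.68 (95% interval -1.46 to 0.11).

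The 2-pore-domain channels held 3 of the 6 members that fell, and 10 of their 12 members were tested. That is 30% of the tested ones, beside 3.05% of all tested probes called lower. Kcnk1 (NCBI gene 59324), which encodes TWIK1, a weakly conducting background channel, read 13.15, 13.38 and 13.36 on the young arrays and 12.40, 12.07 and 12.38 on the old ones. The values of each age lay close together and apart from the other age. Its difference of -1.02 (SE 0.23, 95% interval -1.56 to -0.47, adjusted p = 0.0447 by limma) corresponds to a 2.02-fold lower signal, and it ranged from -0.91 to -1.28 over 18 alternatives, passing the threshold in 8.

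Kcnk2 (NCBI gene 170899) encodes TREK1, a channel opened by stretch and fatty acids. It read 10.55, 10.43 and 10.40 in young and 9.05, 9.64 and 8.56 in old islets, with no overlap and more spread among the old arrays. The difference was -1.38 (SE 0.32, 95% interval -2.14 to -0.62, adjusted p = 0.0474 by limma). Its second probe, on another transcript record, was well above background on 3 young arrays and no old array and gave no bound.

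Kcnk6 (NCBI gene 116491) encodes TWIK2, a relative of TWIK1 found in internal membranes as well as at the surface. It read 9.92, 10.61 and 10.34 in young and 8.93, 9.01 and 9.32 in old islets, again with a gap between the ages (difference -1.20, SE 0.27, 95% interval -1.85 to -0.55, adjusted p = 0.0456 by limma). Kcnk1, Kcnk2 and Kcnk6 were well above background on all 6 arrays and, like Kcnn2 and Kcns1, also passed the threshold with normexp.

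The 2-pore-domain channels best known from beta and delta cells did not pass. Kcnk16, TALK1, which is largely restricted to the pancreas, read 12.77, 12.43 and 12.07 in young and 12.58, 12.57 and 13.27 in old islets (difference 0.38, 95% interval -0.36 to 1.12). Kcnk3, the acid-sensitive TASK1, read 13.28, 13.33 and 14.15 against 12.38, 13.12 and 12.96, where all old values lay below all young ones (difference -0.77, 95% interval -1.59 to 0.05, adjusted p = 0.173). Kcnk13, the halothane-inhibited THIK1, was the third member with all old values above the young ones, at 4.50, 5.04 and 5.64 against 6.35, 5.86 and 5.66 (difference 0.90, adjusted p = 0.142).

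**Figure D4:**
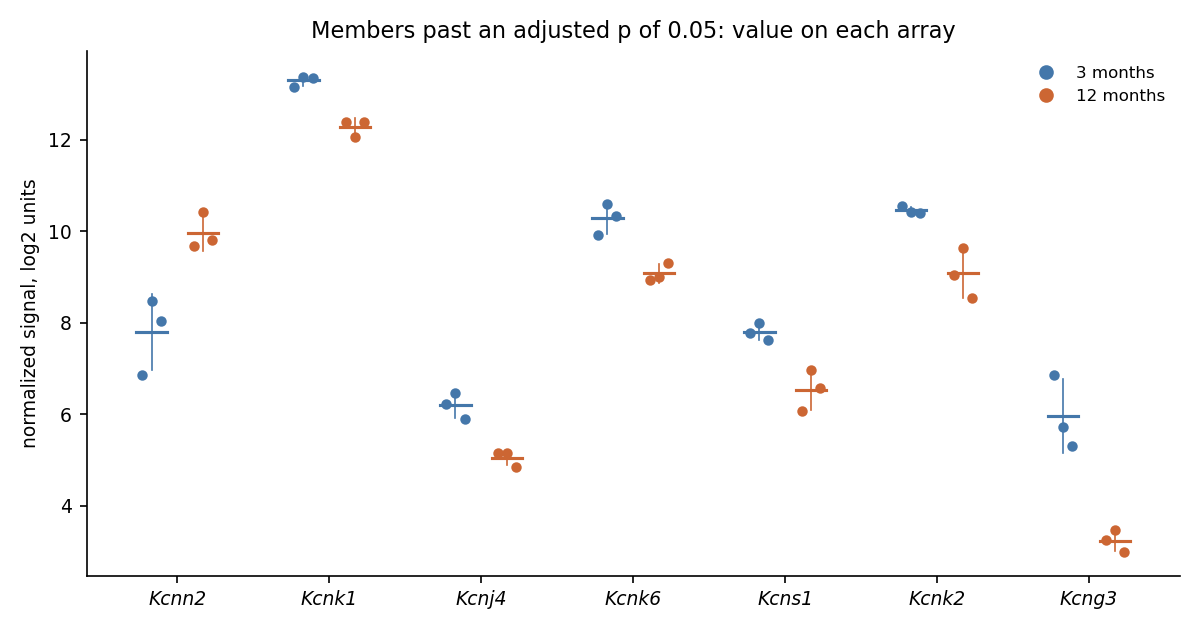
Normalised log2 signal on each array (points) of the 7 members past an adjusted p of 0.05, with the mean (horizontal bar) and SD (vertical line) of 3 arrays per age (blue, 3 months; orange, 12 months). The ages do not overlap for any of the 7. The old values of Kcng3 were not well above background, and Kcnj4 was well above background on 1 old array alone.

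The calls rested on few arrays. Without old replicate 1 or without old replicate 3, no member passed the adjusted threshold in limma, although 11 and 15 had an unadjusted p under 0.05, and 0 passed by an unpaired t-test on all 6 arrays after the same adjustment (8 before it). Without old replicate 2 there were 7, of which Kcng3, Kcnk2 and Kcns1 were among those reported above. Without young replicate 1 or young replicate 3 Kcng3 remained alone, and without young replicate 2 Kcng3 and Kcnn2 did. Kcng3 had entered the test through its young arrays alone, so its calls were against old values not well above background. The share of all probes called in each fit was not counted. The signs of the 7 were the same in each of these fits.

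**Figure D5:**
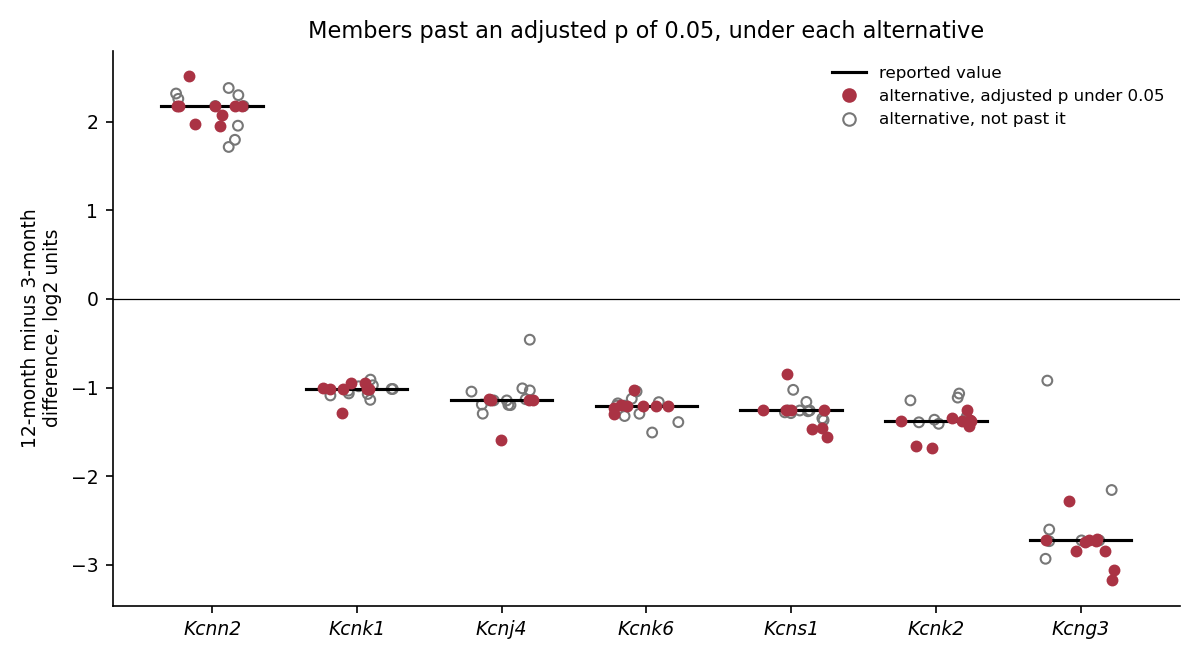
Difference between old and young islets (log2 units, vertical axis) of the 7 members past an adjusted p of 0.05: the reported value (bar) and the value under each alternative, left-out arrays included (filled, adjusted p under 0.05; open, not past it). The points stay on 1 side of 0 for each gene, and those of Kcng3 and Kcnj4 nearest to 0 are from normexp. The differences of Kcng3 are against old values that were not well above background, and Kcnj4 was well above background on 1 old array alone.

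The channels ascribed to islet electrical activity were set beside the rest of the family. Of 29 listed genes with a probe 23 were tested, 1 rose (Kcnn2) and 1 fell (Kcnk1), and 13 were higher and 10 lower in sign, with a median of 0.34. Among the 35 tested members outside that list none rose in limma (2 were higher at an unadjusted p under 0.05) and 5 fell, 8 were higher and 27 lower in sign, and the median was -0.82. Over all matched genes the median was -0.13, 4.88% rose and 2.98% fell, and 56.5% were lower in sign. The 5 tested members well above background on no old array were all outside the list and had entered the test through their young arrays alone. Among members well above background on all 6 arrays, 21 were on the list, with 1 higher and 1 lower at the adjusted threshold of limma and a median of 0.34. Outside it were 22, with 0 higher and 3 lower and a median of -0.80. The list was drawn up with earlier results of these data known, and these counts are a description.

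Markers of the cells in the preparation also moved. Of 7 beta cell markers tested 2 rose, the glucose transporter gene Slc2a2 and the zinc transporter gene Slc30a8, while Ins1 and Ins2 differed by 0.10 and -0.12. Ins1 read 18.72 on old replicates 1 and 2 and young replicate 3, near the top of the normalised range. Quantile normalisation sets values there by rank, so a change of Ins1 could be hidden. The same limit holds for Ins2, Gcg, Sst and Ppy, which also lay high in the range, Gcg at 18.01 on each young array. The median difference was 0.95 for the beta cell list, 0.17 for alpha, 0.73 for delta and 0.44 for PP cells, 0.03 for duct, -0.18 for immune and -0.66 for red blood cells. The 3 tested endothelial markers did not go one way: Tek differed by -1.14 and Pecam1 by 1.23 (adjusted p of 0.0720 and 0.124), and Cdh5 was well above background on no old array. All 11 tested nerve and Schwann cell markers of 12 were lower in sign in old islets, with a median of -1.23, and Prph and Sox10 fell at the adjusted threshold in limma, Sox10 with values on 2 young arrays. The summed linear signal of the list without Sox10 was 11854 to 21543 on the young arrays and 7332 to 8194 on the old ones. The defining markers Sox10, S100b and Th were well above background on all arrays, and none of the 11 was at 0. The 4 stellate and mesenchymal markers were all higher in sign, with a summed signal of 7977 to 13443 in young and 19803 to 53250 in old islets over the 3 that had values on all arrays, and 1 passed. Neurons express many potassium channel genes, and the part of any of these cell types in the differences of the members, lower or higher, was not tested.

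Proteins that work with potassium channels, listed by function, gave 24 tested genes, of which 3 rose, 1 fell and 20 did not pass (12.5% and 4.17%, beside 5.32% and 3.05% of all probes), with a median of -0.00. Calm2, which encodes calmodulin, the calcium sensor of the Kcnn channels, rose by 1.14 (SE 0.23, adjusted p = 0.0342 by limma). Calm3, also a calmodulin gene, did not rise: all its old values lay below all young ones (difference -0.27, 95% interval -0.81 to 0.28). Dpp10, a partner of the Kcnd channels, rose by 0.94 (adjusted p = 0.0476), while of the Kcnip subunits Kcnip2 and Kcnip4 were lower in sign and Kcnip3 higher (difference 0.60, 95% interval -0.75 to 1.94). Dlg4, the PSD-95 scaffold that gathers Kcna and Kcnj channels at the membrane, fell by 1.25 (adjusted p = 0.0260).

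Other channels and pumps of islet excitability gave 28 tested genes, of which 2 rose and none fell in limma (0 were lower at an unadjusted p under 0.05), and 7 were higher and none lower by the study's threshold. These are 7.14% and 0% at the adjusted threshold, and 25% and 0% at the study's, beside the shares of all probes given above. Cacna1c, the pore of an L-type calcium channel, rose by 1.19 (SE 0.25, adjusted p = 0.0371). Abcc9, a regulatory subunit of KATP channels outside the beta cell, rose by 2.82 (SE 0.42, adjusted p = 0.0162), and its pore Kcnj8 differed by 1.75 (adjusted p = 0.0535). Kcnj11, the beta cell KATP pore, had a value on 1 young array alone (14.58, beside 14.23, 14.79 and 14.54 on the old arrays), so no difference is given. The median over this list was 0.20.

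The promoters of the members were searched for 4 short motifs on both strands of the 250 bases before each start. RefSeq GRCr8 entries were found for 56 of the 81 members, with 61 promoters, and Kcnk1 and Kcnk6 had none. Of the called members not shown above, Kcnn2 held 1 CRE core and the 2 promoters of Kcnk2 held none of the motifs. The GC box GGGCGG was in 49.2% of member promoters and in 30.5% of 33469 promoters of the same length. The CRE core TGACG was in 19.7% against 18.2%, CCAAT in 24.6% against 34%, and TATAAA in 3.28% against 12.9%. The median GC content was 59.6% for members and 51.2% for all promoters, and no motif overlapped another in the sequences shown. Matches describe letters alone.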

How the data were processed

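Total RNA of 6 islet samples was measured on 1-colour arrays, per the labels, and the authors deposited scanner output with Agilent Feature Extraction 11.0.1.1 intensity values (processed, median and background signals with flags) and a table of quantile-normalised log2 values, in which the median of each array was 9.40 to 9.48. Groups came from the sample labels, and 1 old sample carried no number there. Control spots and outlier-flagged spots were left out, spots of a probe were averaged, and log2 processed signals were quantile normalised. Probes were matched to genes by mRNA accession (14274 of 15323 mRNA probes) through RefSeq GRCr8, while the array design uses rn4, so that no gene coordinates were carried over.

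Of 24684 probes, 17944 were well above background on at least 3 arrays, and 17941 with values for both ages were tested two-sidedly with limma 3.58.1 in R 4.3.3, with Benjamini-Hochberg adjustment. Where a gene had no signal well above background on any old array, its fold was bounded by the lowest signal well above background on each array. Some values that were not well above background lay above that signal, such as Kcnk18 at 4.69 on old replicate 1, where it was 4.26. The bounds are therefore approximate. Named genes were those past an adjusted p of 0.05 or past the study's threshold, and a list of channels of islet electrical activity. The members and lists were chosen with earlier results of these data known. The comparison was tested on simulated data and repeated under 18 settings of normalisation, background correction, filter, variance model, pairing, probe choice and left-out arrays, and at an adjusted p of 0.1. The number of arrays limits the precision. Some genes are not reported here by name, though the counts and medians include them.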

Additional observations from a re-analysis of the deposited data

How the results depend on the processing

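The 7 members past the adjusted threshold in limma became 15 with array weights, where old replicate 1 had a weight of 3.70, and the 14 past the study's threshold became 6 with normexp, all 6 among the 14. The unpaired t-test of the methods left 0 after adjustment (8 at an unadjusted p under 0.05) and 7 by the study's threshold. Leaving out 1 array gave 0 to 7 at the adjusted threshold, 10 to 20 by the study's threshold, and a median difference of -0.60 to -0.23. The median was -0.16 after normexp (all probes -0.10), and -0.12 when dim probes were kept (all probes -0.06). With the 75th percentile in place of quantile normalisation it was -0.63, where all probes shifted to -0.40, and the counts were 8 and 19. The authors' table gave 7 and 14. The share of all probes called under each alternative was not counted, so these counts do not show whether a change was particular to the family.

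For its mRNA lists the study paired samples in a t-test without saying which. The replicate numbers did not pair the samples by the check used here: the deviations of same-numbered samples correlated at -0.01 and -0.31. With a replicate block on the 4 numbered arrays, 0 members passed (12 at an unadjusted p under 0.05) and the median was -0.25 (all probes -0.13). A paired t-test on 3 pairs, the third formed by elimination, left 0 (9 unadjusted) and 7 by the study's threshold. The 4 arrays whose names share an ending gave 0 (13 unadjusted) and a median of -0.15.

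None of the 7 changed sign. Genes that had not passed did, in these settings: Kcng2 (-0.0758), Kcnmb1 (0.19) and Kcns3 (0.0407) with array weights, Kcna5 (0.30), Kcnc1 (0.29), Kcng2 (-0.15) and Kcnk16 (-0.0220) with the block, and Kcnc1 (0.0421) and Kcnj5 (-0.11) on the 4 arrays. Leaving out 1 array, the range crossed 0 for Kcna5 (-0.56 to 0.23), Kcnh2 (-0.32 to 0.10), Kcnmb1 (-0.32 to 0.22), Kcnc1 (-1.31 to 0.0253), Kcng2 (-0.0127 to 0.30) and Kcnb2 (-0.0388 to 0.65). The causes were not tested. Signals near background on the old arrays limit what can be said of dim members.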
